A study of Mus musculus with 4 samples.

Results

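The genes described here are 10 genes that gut epithelium is known to raise on contact with microbes: the serum amyloid A genes Saa1, Saa2 and Saa3, the antimicrobial gene Lcn2, the immunoglobulin transport gene Pigr, the nitric oxide synthase gene Nos2, the chemokine genes Ccl20 and Cxcl1, the cytokine gene Il18 and the inflammasome sensor gene Nlrp6. They were chosen by name, as 10 of the 53845 rows of a table of read counts per gene, and the 10 symbols were all found in it. RNA-seq was performed on small intestinal crypts, the epithelial pits that hold the stem cells, from C57BL/6 mice without injury. The WT group held 2 libraries labelled wildtype, and the labels do not say whether these mice carried floxed alleles. The cross that the supplement gives for breeding, of Villin-cre; CREPT fl/fl with CREPT fl/fl mice, yields floxed controls without Cre, but it is not tied there to these libraries. The Vil-CREPTKO group held 2 libraries from mice in which Cre under the villin promoter removes exon 3 of the floxed gene for CREPT (Rprd1b), a protein that binds RNA polymerase II. Villin drives Cre along the whole intestinal epithelium and from development on, so the mice had lacked CREPT long before the crypts were taken, and other cells in the preparation keep the gene.

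The gut epithelium senses bacteria through Toll-like receptors and NOD-like receptors. Through NF-κB and, downstream of the cytokines interleukin-22 and interleukin-17, through STAT3 and C/EBP factors, it then raises acute phase proteins, chemokines and antimicrobial proteins. NLRP6 is a NOD-like receptor of the intestinal epithelium that can assemble with the adaptor ASC (Pycard) and caspase-1, the protease that matures interleukin-18 and cleaves gasdermin D (Gsdmd). pIgR carries dimeric IgA from the lamina propria across the epithelium into the lumen.

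The 250 bases upstream of the start of transcription are shown for 5 genes, since motifs for NF-κB and C/EBP are known to act there in genes of this response: Nlrp6 and Ccl20, the genes with an unadjusted p under 0.05 below, and the low-count genes Cxcl1, Saa1 and Saa2. Sequences and starts of 9 of the 10 genes, all but Nos2, were taken from RefSeq (GRCm38.p6). They are written 5′ to 3′ on the strand of the gene, and capitals mark a match to a motif. The window of Nlrp6 lies at chr7:140920652-140920901 (plus strand), that of Ccl20 at chr1:83116516-83116765 (plus strand), that of Cxcl1 at chr5:90890995-90891244 (plus strand), that of Saa1 at chr7:46742981-46743230 (minus strand) and that of Saa2 at chr7:46751583-46751832 (plus strand).
Nlrp6: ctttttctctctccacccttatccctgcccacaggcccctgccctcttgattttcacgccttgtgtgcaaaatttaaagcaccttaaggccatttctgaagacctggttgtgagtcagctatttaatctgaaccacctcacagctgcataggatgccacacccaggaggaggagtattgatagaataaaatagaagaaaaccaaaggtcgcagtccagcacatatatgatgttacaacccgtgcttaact
Ccl20: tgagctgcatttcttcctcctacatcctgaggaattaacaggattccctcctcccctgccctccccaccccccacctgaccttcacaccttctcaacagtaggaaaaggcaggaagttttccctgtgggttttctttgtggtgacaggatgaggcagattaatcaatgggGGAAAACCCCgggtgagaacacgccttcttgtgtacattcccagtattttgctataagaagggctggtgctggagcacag
Cxcl1: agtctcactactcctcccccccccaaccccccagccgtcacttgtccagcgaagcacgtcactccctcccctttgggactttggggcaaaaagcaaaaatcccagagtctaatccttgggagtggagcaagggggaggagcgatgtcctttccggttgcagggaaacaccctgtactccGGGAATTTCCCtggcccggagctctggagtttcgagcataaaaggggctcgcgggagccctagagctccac
Saa1: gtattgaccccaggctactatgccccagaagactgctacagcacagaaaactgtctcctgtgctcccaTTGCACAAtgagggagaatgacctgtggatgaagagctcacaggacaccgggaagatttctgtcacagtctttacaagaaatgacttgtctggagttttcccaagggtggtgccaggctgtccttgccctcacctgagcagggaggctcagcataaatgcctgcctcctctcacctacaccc
Saa2: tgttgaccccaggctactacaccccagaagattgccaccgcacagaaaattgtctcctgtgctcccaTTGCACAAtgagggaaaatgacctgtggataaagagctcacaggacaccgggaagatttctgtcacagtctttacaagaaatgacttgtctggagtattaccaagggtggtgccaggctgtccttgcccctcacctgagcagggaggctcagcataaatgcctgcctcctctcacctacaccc

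Windows were searched on both strands for the κB consensus, for the C/EBP motif TTGCNNAA and for the STAT motif TTCNNNGAA. The κB consensus was found in 7.25%, the C/EBP motif in 9.56% and the STAT motif in 7.02% of the 32851 RefSeq windows of the same length. Ccl20 held a κB match beginning 80 bases before its start, and Cxcl1 held a pair of overlapping κB matches beginning 71 and 70 bases before it. Matches to the C/EBP motif began 182 bases before the start in Saa1, 183 in Saa2, 99 in Saa3 and 216 in Lcn2. Pigr, Il18 and Nlrp6 held no match to any of these motifs in this window, which says only that these letters are absent there. The windows of Saa1 and Saa2, which lie near each other on chromosome 7 in opposite orientation, were identical at 94.8% of aligned positions, while those of Saa1 and Saa3 were identical at 52.2%.

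Libraries held between 47241049 and 49369315 counts, so that 3 counts, the most that a count of 0 allows, came to between 0.0588 and 0.069 CPM (counts scaled to the library total), counting error only. Rprd1b stood at 60.5 and 61.6 CPM in the WT libraries and at 26.3 and 29.0 CPM in the Vil-CREPTKO libraries (log2 fold change, or log2FC, -1.14, SE 0.12, adjusted p = 0.0041). Counts over the whole gene do not separate the deleted exon 3 from the rest. WT replicate 2 stood apart: its Xist level was 862.7 CPM and 4 Y-linked genes had 0 counts, against 0.299 to 0.529 CPM and 147.9 to 164.0 CPM elsewhere. WT libraries thus came from both sexes. Vil-CREPTKO replicate 1 also differed from the rest, with 10.2% of its counts from mitochondrial genes against 6.75% to 7.62%, and with 21.1 CPM over 10 stromal markers against 5.19 to 9.37 CPM. Summed CPM of 8 epithelial markers lay between 9216.7 and 10705.4, and of the 6 colon markers 3 had at most 3 counts in each library. Of the 10 neutrophil markers 6 had at most 3 counts in each library.

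Levels of the 10 genes spanned a wide range. To compare genes, CPM was divided by the length of the longest coding transcript in kb. Pigr was the highest, with a mean of 1523.9 CPM per kb over the 4 libraries, and 32 of the 17123 tested genes with a length stood above it. Il18 (75.4 CPM per kb, range 56.4 to 88.9) and Nlrp6 (73.5 CPM per kb, range 57.0 to 94.9) followed, and their ranges overlapped. Then came Ccl20 at 2.83 CPM per kb (range 1.53 to 4.1), Nos2 at 0.584 (range 0.262 to 0.878) and Saa1 at 0.503 (range 0.367 to 0.602). Lcn2 (mean 0.285 CPM per kb), Saa3 (0.0481), Cxcl1 (0.0206) and Saa2 (0.00779) lay at the bottom. The ranges of Pigr and Il18, of Nlrp6 and Ccl20, and of Ccl20 and Nos2 did not overlap, whereas from Nos2 downward each gene overlapped with the next in the order. Thus Pigr, Il18 and Nlrp6 were abundant in crypts of both genotypes, while the serum amyloid A genes, Lcn2 and Cxcl1 had at most 43 counts in a library.

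**Figure D1:**
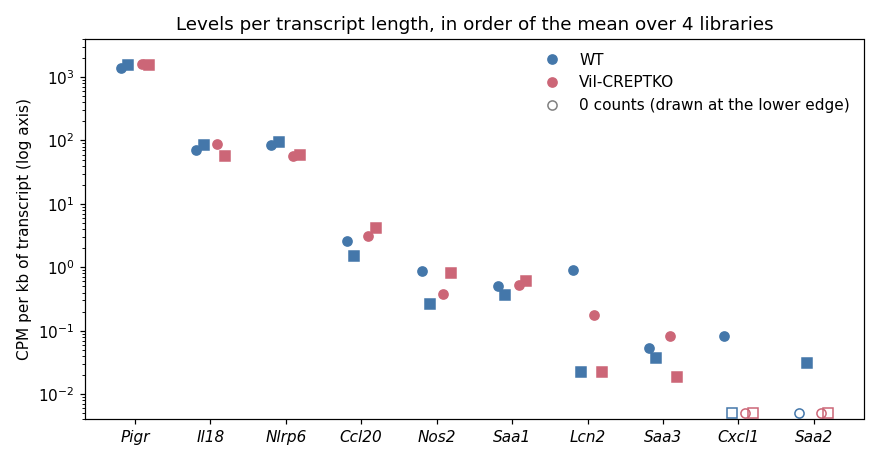
Level of each of the 10 genes as CPM per kb of its longest coding transcript (log axis), in each library (circle, replicate 1; square, replicate 2; blue, WT; red, Vil-CREPTKO; open, 0 counts). Pigr (1376.3 to 1604.4) lies above Il18 and Nlrp6, and Cxcl1 and Saa2 had 0 counts in 3 of 4 libraries.

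WT and Vil-CREPTKO crypts were then compared to ask whether loss of CREPT in the epithelium moves these genes without injury. Of the 10 genes, 6 had enough counts to be tested: Saa1, Pigr, Nos2, Ccl20, Il18 and Nlrp6. The test was edgeR's quasi-likelihood test, with Benjamini-Hochberg adjustment over all 17504 genes tested. With it, 0 of the 6 passed an adjusted p of 0.05 (1 with DESeq2, which gave Saa1 no adjusted p). Past the added fold threshold of 2 there were 0. Of all genes tested, 2.29% passed as lower and 0.423% as higher, and 1.64% passed with the fold threshold in either direction. At an unadjusted p under 0.05, 1 of the 6 was lower (Nlrp6) and 1 was higher (Ccl20) in Vil-CREPTKO, against 14.3% of all genes (9.76% lower and 4.49% higher). Both WT libraries lay on one side of both Vil-CREPTKO libraries for 4 of the 6, against 45.1% of all genes tested. The median log2FC of the 6 was 0.094 and that of all genes tested -0.006. In crypt RNA, fewer cells that express a gene and less RNA per cell cannot be told apart.

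**Figure D2:**
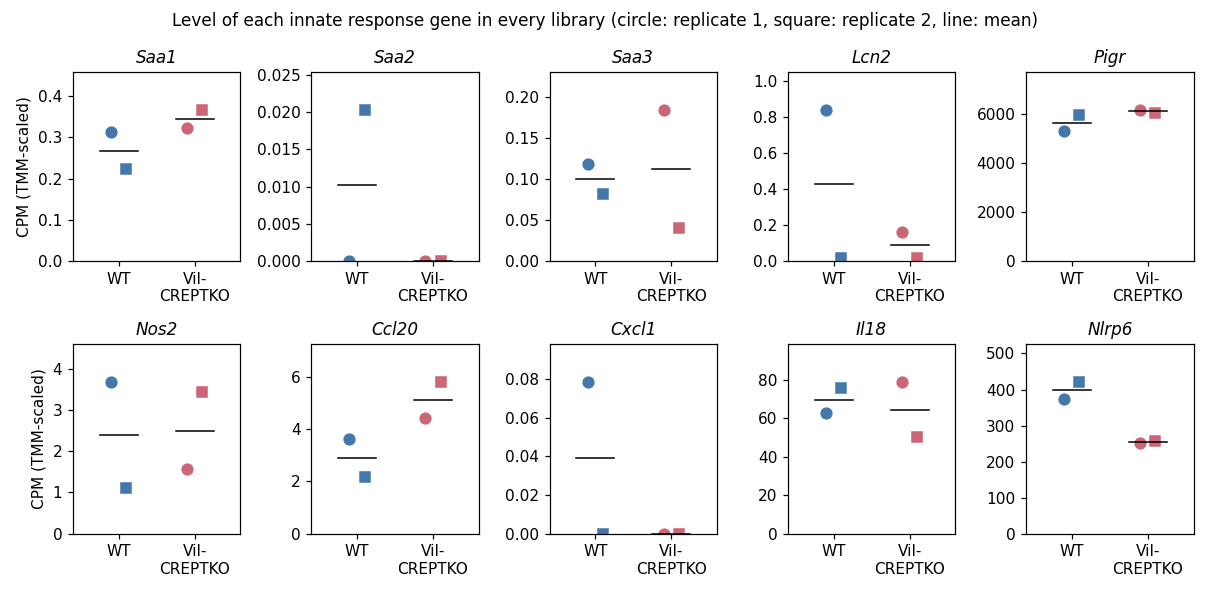
CPM (TMM-scaled, linear axis from 0) of each gene in each library; circles are replicate 1, squares replicate 2 and lines group means. The WT and Vil-CREPTKO libraries do not overlap for Saa1, Pigr, Ccl20 and Nlrp6 among the tested genes, and Nos2 differs more within each group than between them.

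Nlrp6 (chromosome 7, 140920902 to 140929192, plus strand; GRCm38), the sensor of the group, had 19092 and 20713 counts in WT against 10986 and 12631 in Vil-CREPTKO. On the CPM scale the WT libraries were at 374.0 and 420.8, and the Vil-CREPTKO libraries at 252.8 and 257.2. Both Vil-CREPTKO libraries lay well below both WT libraries, and the groups did not overlap. Means were 397.4 ± 33.1 CPM in WT (SD, n = 2) against 255.0 ± 3.15 CPM in Vil-CREPTKO (SD, n = 2), or 64.2% of WT. The log2FC was -0.64 (SE 0.15, 95% interval -0.99 to -0.29), with an adjusted p of 0.0735. The difference therefore missed the threshold with edgeR. It passed with DESeq2 (-0.62, adjusted p = 0.00187, where 3.96% of genes passed as lower), with scaling by library size alone (-0.73, adjusted p = 0.0153, 3.41% of genes) and with no filter on low counts (-0.64, adjusted p = 0.00898, 3.21% of genes). Over the alternatives the adjusted p ranged from 0.00187 to 0.274 and the log2FC from -0.73 to -0.52, and without WT replicate 2 it was -0.55 (adjusted p = 0.274). None of the 50-base stretches of its transcripts was shared with another gene.

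Il18 (chromosome 9, 50554827 to 50581840, plus strand), which encodes the cytokine that the inflammasome matures, stood at 62.8 and 75.6 CPM in the WT libraries and at 78.7 and 49.9 CPM in the Vil-CREPTKO libraries. The highest and the lowest library were both Vil-CREPTKO, so that the groups overlapped. The means were 69.2 ± 9.07 CPM in WT (SD, n = 2) against 64.3 ± 20.4 CPM in Vil-CREPTKO (SD, n = 2). The log2FC was -0.11 (SE 0.2, 95% interval -0.57 to 0.36; adjusted p = 0.88), and it turned to 0.035 when WT replicate 2 was left out and to 0.19 when Vil-CREPTKO replicate 2 was left out. Summed CPM of the 8 epithelial markers was likewise higher in WT replicate 2 and Vil-CREPTKO replicate 1, with 9216.7 and 10405.2 in WT replicates 1 and 2, against 10705.4 and 9597.4 in the Vil-CREPTKO replicates, and its part in the spread of Il18 was not tested. Il18 overlaps Bco2 by 355 bases and Tex12 by 4507 bases on the opposite strand, and the strand setting of the counting was not stated. Bco2 had 13468 counts over the 4 libraries, close to the 12797 of Il18, so that reads from the shared bases cannot be assigned with certainty.

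The other genes of inflammasomes and of interleukin-1 and interleukin-18 signalling were examined as a list of 24 genes, of which 17 were tested. Of these, 3 fell (Pycard, Gsdmd and Il18bp), 0 rose and 14 did not pass, whereas 2.29% of all genes tested fell and 0.423% rose. In the list 12 log2FC values were negative and 5 positive, against 8913 and 8591 over all genes tested, and the median was -0.19. Pycard, the adaptor that links NLRP6 to caspase-1, stood at 192.5 and 190.5 CPM in the WT libraries and at 95.9 and 106.9 CPM in the Vil-CREPTKO libraries, or 52.9% of WT. Its libraries of each group lay close together and the groups were far apart (log2FC -0.92, SE 0.13, adjusted p = 0.0105). Pycard passed without any single library, with an adjusted p of 0.00795 to 0.0213. Of its 50-base stretches 11.7% were shared, with Mvp and with Gm45205, a gene on the opposite strand that had 162 counts against 28619 of Pycard.

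Gsdmd, which encodes the pore protein cut by inflammatory caspases, stood at 161.2 and 208.9 CPM in the WT libraries and at 114.4 and 85.2 CPM in the Vil-CREPTKO libraries. The groups did not overlap, and the log2FC was -0.89 (SE 0.19, adjusted p = 0.0456). Gsdmd no longer passed without WT replicate 2 (-0.69, adjusted p = 0.106), without Vil-CREPTKO replicate 2 (-0.69, adjusted p = 0.0845) or after correction for GC content and length (-0.78, adjusted p = 0.065). Il18bp, the secreted inhibitor of interleukin-18, stood at 6.64 and 9.87 CPM in the WT libraries and at 3.7 and 2.69 CPM in the Vil-CREPTKO libraries, a far lower level than that of Il18 itself. It fell to 38.7% of WT (log2FC -1.37, SE 0.28, adjusted p = 0.0398), and no longer passed without WT replicate 2 (-1.05, adjusted p = 0.122) or without Vil-CREPTKO replicate 2 (-1.15, adjusted p = 0.0617). Il18bp overlaps Numa1 on the opposite strand by 80 bases, and Numa1 had 34878 counts over the 4 libraries against 1118 of Il18bp. Thus the sensor, its adaptor, the pore protein and the cytokine inhibitor each had lower values in both Vil-CREPTKO libraries, while Il18 did not. Nlrp6 and Il18 did not pass the test with edgeR. Of all genes tested, 45.1% had groups that did not overlap, in either direction. In the same list, Casp1, Naip5 and Naip6 were also lower in both Vil-CREPTKO libraries. Nlrc4, Naip1, Casp8, Nlrp1b and Nlrp9b had positive log2FC values. These further genes were named after their values were seen.

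The protease and the other sensors of the list did not pass, and those given here were named after their values were seen. Casp1, which encodes caspase-1, stood at 125.4 and 162.7 CPM in the WT libraries and at 115.7 and 117.8 CPM in the Vil-CREPTKO libraries (log2FC -0.30, SE 0.15, adjusted p = 0.423). Nlrc4, which responds to bacterial flagellin and secretion systems through NAIP proteins, stood at 55.8 and 57.3 CPM in the WT libraries and at 63.6 and 57.3 CPM in the Vil-CREPTKO libraries (0.10, SE 0.12, adjusted p = 0.788). Nlrp3 and Nlrp12 had at most 4 counts in a library and Il1b had 5 to 8, so that differences in these myeloid genes were not detectable at this depth. Markers of lymphocytes, which also express genes of this list, summed to 917.1 and 719.4 CPM in WT and to 676.9 and 573.5 CPM in Vil-CREPTKO over 12 markers, of which 0 passed as higher or lower, with a median log2FC of -0.31. Their part in the values of Pycard, Gsdmd, Il18bp and Nlrp6 was not tested.

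**Figure D3:**
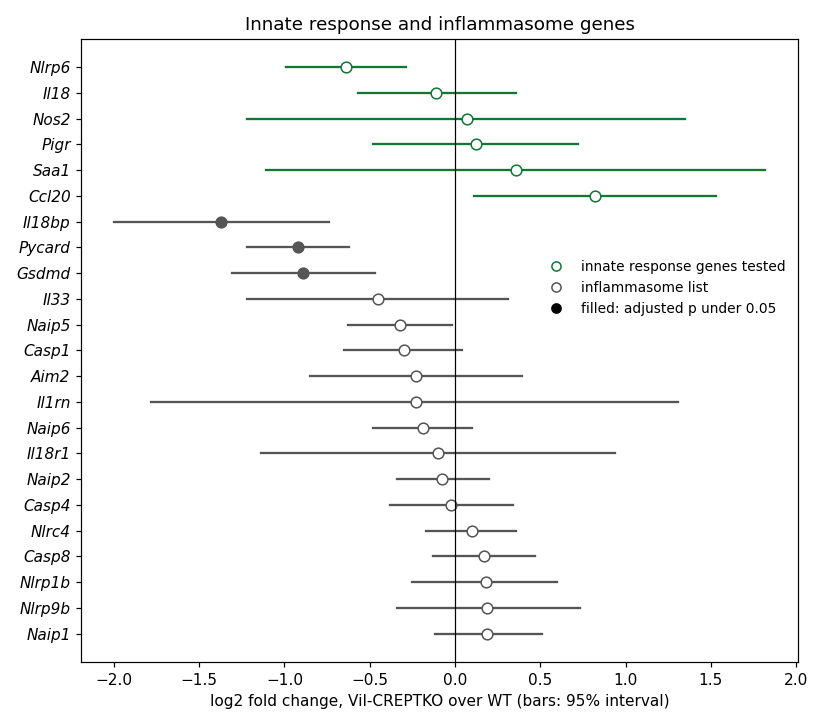
Log2FC of Vil-CREPTKO over WT (edgeR) with 95% intervals for the 6 tested innate response genes (green) and the 17 tested genes of the inflammasome list (grey); filled points passed an adjusted p of 0.05. Il18bp, Pycard and Gsdmd passed as lower, and the interval of Nlrp6 (-0.99 to -0.29) lies below 0 without passing after adjustment.

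**Figure D4:**
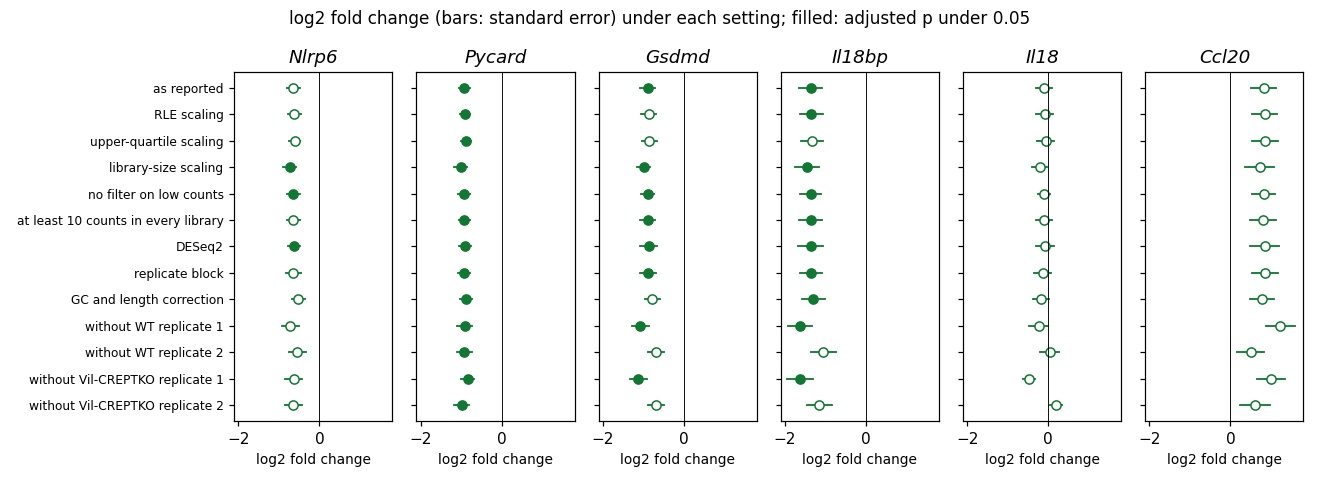
Log2FC with its standard error of Nlrp6, of 3 inflammasome genes, of Il18 and of Ccl20 under each setting of the analysis; filled points passed an adjusted p of 0.05. Pycard passed under each setting shown, Nlrp6 under 3 of them, Gsdmd and Il18bp under some, and Il18 and Ccl20 under none.

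Ccl20 (chromosome 1, 83116766 to 83119167, plus strand), the chemokine through which epithelium over lymphoid follicles attracts cells with CCR6, had 185 and 107 counts in WT against 192 and 285 in Vil-CREPTKO. In CPM, WT stood at 3.62 and 2.17, and Vil-CREPTKO at 4.42 and 5.8. Both Vil-CREPTKO libraries lay above both WT libraries, with WT replicate 2 the lowest. Means were 2.9 ± 1.03 CPM in WT (SD, n = 2) against 5.11 ± 0.98 CPM in Vil-CREPTKO (SD, n = 2), or 176.3% of WT. The log2FC was 0.82 (SE 0.31, 95% interval 0.11 to 1.53), with an adjusted p of 0.265. Without WT replicate 2 it was 0.50 (adjusted p = 0.671).

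Cxcl1 (chromosome 5, 90891241 to 90893115, plus strand), which attracts neutrophils through CXCR2, had 4 counts in WT replicate 1 and 0 in each of the other libraries. No difference between the groups was detectable at this depth. Of 18 other chemokine and epithelial cytokine genes 10 were tested, with 0 higher, 0 lower (2 lower at an unadjusted p under 0.05, 1 with DESeq2) and a median of -0.25, and 4 had 0 counts in each library. Over all genes, 9.76% were lower at an unadjusted p under 0.05, and 3.96% passed as lower with DESeq2. Cxcl2, another ligand of CXCR2, which was named after its values were seen, had 14 and 7 counts in WT and 0 in both Vil-CREPTKO libraries and was too low to be tested. Ccl9 stood at 47.3 and 29.0 CPM in the WT libraries and at 17.7 and 20.2 CPM in the Vil-CREPTKO libraries, without overlap and with a log2FC of -1.01 (SE 0.22, adjusted p = 0.0524). It passed with DESeq2 (adjusted p = 0.000939), when WT replicate 2 was left out (-1.32, adjusted p = 0.000751) and when Vil-CREPTKO replicate 2 was left out (-1.10, adjusted p = 0.0302), and not when WT replicate 1 was left out (-0.62, adjusted p = 0.112). Over the alternatives the adjusted p of Ccl9 ranged from 2.9e-06 to 0.112. Cxcl16, a membrane-bound chemokine, had 511 and 413 counts in WT against 291 and 256 in Vil-CREPTKO (-0.63, SE 0.21, adjusted p = 0.205).

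Pigr (chromosome 1, 130826684 to 130852249, plus strand) stood at 5297.4 and 5949.8 CPM in the WT libraries and at 6175.4 and 6039.4 CPM in the Vil-CREPTKO libraries. The 4 libraries were close, with both Vil-CREPTKO libraries slightly above both WT libraries. The means were 5623.6 ± 461.4 CPM in WT (SD, n = 2) against 6107.4 ± 96.2 CPM in Vil-CREPTKO (SD, n = 2). The log2FC was 0.12 (SE 0.26, 95% interval -0.48 to 0.72; adjusted p = 0.9), an interval that leaves room for a moderate change in either direction. In a list of 12 genes of IgA and its induction, 10 were tested, 0 passed in either direction and 4 were higher at an unadjusted p under 0.05, against 4.49% of all genes. With DESeq2 3 genes of the list passed as higher, against 1.16% of all genes. Igkc, the kappa light chain made by plasma cells, stood at 33.3 and 17.4 CPM in the WT libraries and at 48.9 and 61.1 CPM in the Vil-CREPTKO libraries (log2FC 1.12, SE 0.27, adjusted p = 0.0714). It passed with DESeq2 (adjusted p = 0.000462), when WT replicate 1 was left out (1.66, adjusted p = 0.000121) and when Vil-CREPTKO replicate 1 was left out (1.26, adjusted p = 0.0247), and was 0.72 when WT replicate 2 was left out (adjusted p = 0.0735). Over the alternatives the adjusted p of Igkc ranged from 8.82e-08 to 0.0974. Aldh1a1, an enzyme of retinoic acid synthesis, stood at 127.2 and 149.0 CPM in the WT libraries and at 411.5 and 202.4 CPM in the Vil-CREPTKO libraries (1.15, SE 0.29, adjusted p = 0.0851). Aldh1a1 passed when Vil-CREPTKO replicate 2 was left out (1.58, adjusted p = 0.000624) or WT replicate 2 was left out (1.27, adjusted p = 0.042), and was 0.55 when Vil-CREPTKO replicate 1, its highest library, was left out (adjusted p = 0.152). Over the alternatives its adjusted p ranged from 3.81e-07 to 0.222.

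Nos2 (chromosome 11, 78920787 to 78960254, plus strand), the inducible nitric oxide synthase, had 188 and 54 counts in WT against 68 and 169 in Vil-CREPTKO, or 3.68, 1.1, 1.56 and 3.44 CPM. One library of each group was high and the other low, so that the groups overlapped fully. The means were 2.39 ± 1.83 CPM in WT (SD, n = 2) against 2.5 ± 1.33 CPM in Vil-CREPTKO (SD, n = 2). The log2FC was 0.069 (SE 0.56, 95% interval -1.22 to 1.35; adjusted p = 0.977), and leaving out 1 library moved it between -0.61 and 1.19 (-0.55 without WT replicate 2). Summed CPM of 6 crypt markers was 5086.1 and 4434.6 in WT replicates 1 and 2, and 3983.8 and 6125.0 in the Vil-CREPTKO replicates. The higher library of each group was thus the same as for Nos2. Most of each sum came from Lyz1 (2957.9, 2669.9, 2494.8 and 4048.3 CPM) and Olfm4 (1721.1, 1337.7, 1126.6 and 1614.0 CPM), named after their values were seen. The rest of the sum was higher in WT replicate 2 than in WT replicate 1. The part of these markers in the spread of Nos2 was not tested.

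The serum amyloid A genes were barely detected in either genotype. Saa1 (chromosome 7, 46740497 to 46742980, minus strand), an acute phase apolipoprotein, had 16 and 11 counts in WT against 14 and 18 in Vil-CREPTKO, or 0.313, 0.223, 0.322 and 0.367 CPM. The Vil-CREPTKO libraries were slightly above the WT libraries, but the log2FC of 0.36 had an SE of 0.64 and a 95% interval of -1.11 to 1.82 (adjusted p = 0.87), and it was 0.14 when WT replicate 2 was left out. Saa2 had 1 count in WT replicate 2 and 0 in the others, and Saa3, the form made mainly outside the liver, had 6 and 4 counts in WT against 8 and 2 in Vil-CREPTKO. Neither was tested. Of the 50-base stretches of Saa1 transcripts 31.5% also occur in Saa2 or Saa3, and the longest coding transcripts of Saa1 and Saa2 were identical at 87.3% of aligned positions, so that the counts of single copies are uncertain.

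Lcn2 (chromosome 2, 32384633 to 32388252, minus strand), which encodes a protein that binds bacterial siderophores, had 43 and 1 counts in WT replicates 1 and 2, against 7 and 1 in the Vil-CREPTKO replicates. A single library held most of the counts, and the gene was not tested. The 10 neutrophil markers had summed counts of 53, 2, 33 and 14 in the same order. S100a9, the calprotectin subunit of neutrophils, had 30 counts in WT replicate 1 and 0 in each of the others. In the same order, the markers S100a8 and Csf3r had 5, 1, 11 and 0 counts and 10, 0, 8 and 2 counts. These markers were named after their values were seen. Summed, the other markers of the list had more counts in each Vil-CREPTKO library than in either WT library, unlike Lcn2. The part of neutrophils in the Lcn2 counts was not tested. Of 20 other acute phase genes 8 were tested, 0 passed in either direction (1 in each at an unadjusted p under 0.05, 0 with DESeq2) and the median was 0.051. Ltf, which encodes the iron-binding protein lactoferrin, stood at 0.862 and 0.467 CPM in the WT libraries and at 1.56 and 1.41 CPM in the Vil-CREPTKO libraries (log2FC 1.15, SE 0.45, adjusted p = 0.282). Cfb, a complement factor, stood at 10.3 and 8.35 CPM in the WT libraries and at 17.3 and 7.6 CPM in the Vil-CREPTKO libraries (0.42, adjusted p = 0.652), and turned to -0.30 without Vil-CREPTKO replicate 1, its highest library, and to 0.90 without Vil-CREPTKO replicate 2 (adjusted p = 0.0392).

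Most genes of the sensors and signals upstream of the 10 genes did not pass the test. Of 22 genes of Toll-like and NOD receptors and their adaptors 18 were tested, and 1 fell: Ticam1, the adaptor TRIF of Toll-like receptors 3 and 4, stood at 50.5 and 57.2 CPM in the WT libraries and at 30.6 and 27.5 CPM in the Vil-CREPTKO libraries (log2FC -0.89, SE 0.13, adjusted p = 0.0107). The median of the list was -0.13, and 2.29% of all genes tested fell. Tlr1 stood at 5.41 and 8.63 CPM in the WT libraries and at 3.01 and 5.03 CPM in the Vil-CREPTKO libraries (-0.80, SE 0.32, adjusted p = 0.293; -0.42 when WT replicate 2 was left out). Of 18 NF-κB and C/EBP genes, each of which was tested, 1 rose and 0 fell, with a median of 0.016, and 0.423% of all genes tested rose. Nfkbiz, which encodes the nuclear cofactor IκBζ, rose from 62.9 and 58.5 CPM in WT to 94.2 and 88.7 CPM in Vil-CREPTKO (0.59, SE 0.11, adjusted p = 0.0335). It no longer passed without WT replicate 1 (adjusted p = 0.0817), WT replicate 2 (0.192) or Vil-CREPTKO replicate 1 (0.0525), nor with library-size scaling (0.0818). Ikbkg, the regulatory subunit of the IκB kinase, stood at 42.4 and 45.3 CPM in the WT libraries and at 31.8 and 33.2 CPM in the Vil-CREPTKO libraries (-0.43, SE 0.12, adjusted p = 0.119).

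Receptors of interleukin-22, interleukin-17, interleukin-1 and related cytokines, with their JAK and STAT3 signals, formed a list of 21 genes. Of the 19 tested 0 passed in either direction (1 higher at an unadjusted p under 0.05, 0 with DESeq2), and the median was -0.064. Socs3, the feedback inhibitor induced by STAT3, stood at 26.6 and 25.4 CPM in the WT libraries and at 38.0 and 31.0 CPM in the Vil-CREPTKO libraries (log2FC 0.41, SE 0.14, adjusted p = 0.224). Il1rap, the shared subunit of receptors for interleukin-1 and interleukin-33, stood at 9.32 and 8.15 CPM in the WT libraries and at 9.02 and 12.1 CPM in the Vil-CREPTKO libraries, with overlap (0.28, SE 0.2, adjusted p = 0.621).

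Other effectors that epithelium directs at microbes were a list of 20 genes, each of which was tested. Of these, 2 rose and 0 fell (3 and 1 with DESeq2), with a median of 0.058. Over all genes tested, 0.423% rose and 2.29% fell (1.16% and 3.96% with DESeq2). Retnlb, the goblet cell product RELMβ, stood at 31.3 and 29.3 CPM in the WT libraries and at 295.2 and 418.3 CPM in the Vil-CREPTKO libraries, an 11.8-fold difference (log2FC 3.56, SE 0.20, adjusted p = 0.000632). Reg3b, a secreted antibacterial lectin, rose from 1007.2 and 1079.1 CPM to 4035.4 and 2040.1 CPM (1.54, SE 0.32, adjusted p = 0.0459), and without Vil-CREPTKO replicate 1, its highest library, stood at 0.96 (adjusted p = 0.0979). Its relative Reg3g, named after its values were seen, stood at 413.8 and 204.5 CPM in the WT libraries and at 1241.0 and 689.7 CPM in the Vil-CREPTKO libraries (1.64, SE 0.37, adjusted p = 0.0577). Reg3g also did not pass with DESeq2 (adjusted p = 0.124), nor in edgeR with RLE scaling (0.0651) or upper-quartile scaling (0.0778). In edgeR it passed with library-size scaling (0.00791), the replicate block (0.00699) and the GC and length correction (0.0318). It also passed with no filter on low counts (4.79e-10) and at least 10 counts in every library (0.0464). Without 1 library its log2FC ranged from 1.15 to 2.24. Lypd8, which keeps flagellated bacteria from the mucosa and was also named after its values were seen, stood at 1639.8 and 1619.4 CPM in the WT libraries and at 920.8 and 844.1 CPM in the Vil-CREPTKO libraries (-0.88, SE 0.19, adjusted p = 0.0546). Lypd8 passed as lower with DESeq2 (adjusted p = 4.89e-07). In edgeR it did not pass with the replicate block (0.196), upper-quartile scaling (0.0632), RLE scaling (0.0715) or the GC and length correction (0.0624). It passed without the low-count filter (0.00101), when scaled by library size (0.00277) and with 10 or more counts required in each library (0.0445). Its log2FC lay between -0.95 and -0.82 when 1 library was left out.

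**Figure D5:**
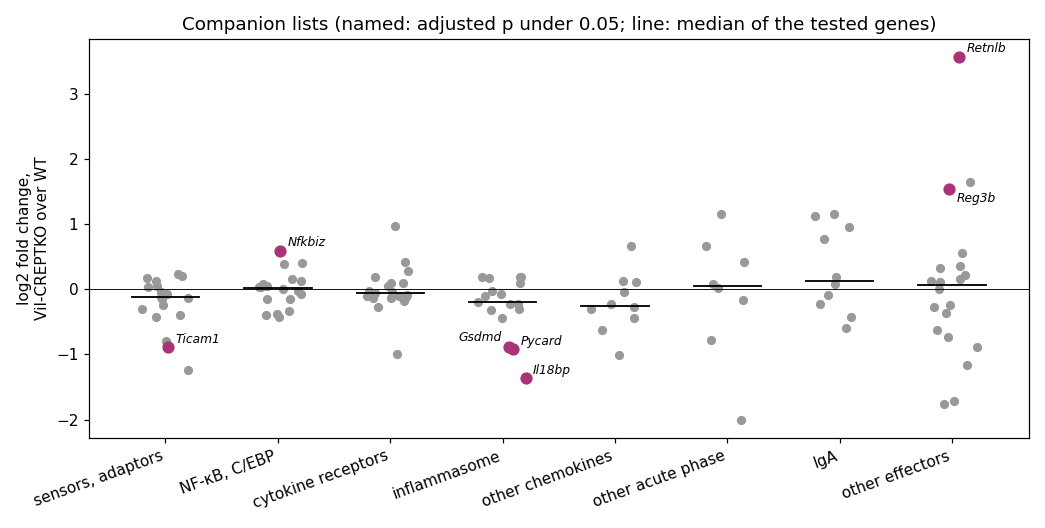
Log2FC of Vil-CREPTKO over WT for each tested gene of 8 lists of related genes, with the median of each list as a line; named points passed an adjusted p of 0.05. Ticam1, Pycard, Gsdmd and Il18bp lie below 0 and Nfkbiz, Reg3b and Retnlb above it, while the medians lie between -0.25 and 0.13.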

How the data were processed

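Titles in the record gave each library its group and number. The authors deposited raw counts of reads for each gene, as whole numbers without normalization, and these were used as they stand. The methods describe 2 biological replicates per group, mapping with Bowtie2 to transcripts of GRCm38.p6 and estimation with RSEM, and the submitters' processing notes also name CASAVA 1.8. Versions of the other tools and the strand setting were not given in the sources used here, and the methods name a BGISEQ sequencer where the record names Illumina. The supplement describes the crypt RNA-seq as 2 mice per genotype, the number of libraries of each.

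Identifiers were matched to GENCODE M21 (GRCm38) for 53360 of 53845 rows, and 380 unnamed loci held 0.178% to 0.247% of counts. The analysis ran in edgeR 4.0.16 under R 4.3.3: filterByExpr kept 17504 genes, libraries were scaled by TMM, and WT and Vil-CREPTKO were compared by the quasi-likelihood test (two-sided), with Benjamini-Hochberg adjustment across every tested gene and 95% intervals from the same fit. CPM values use TMM-scaled totals of the tested genes, also for genes too low to be tested. The common biological coefficient of variation was 0.188, larger than counting error for abundant genes but not for Saa1. The chi-square per gene was 49.8 between the WT libraries and 70.1 between the Vil-CREPTKO libraries, and both were kept as separate samples. The alternatives were DESeq2 1.42.0, other scalings and filters, a GC and length correction (loess span 0.5), a replicate block and each library left out. A promoter window ended at the base before the RefSeq start. The 10 genes, the lists and the motifs were chosen with earlier results of these data known. Named genes were the 10 genes, Rprd1b and, of each list, those with an adjusted p under 0.05 and, where fewer than 2 passed, those with the largest log2 fold changes among genes averaging at least 1 CPM. Marker genes were named where they move with a gene described, and genes outside this rule are said to be named after their values were seen.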

Additional observations from a re-analysis of the deposited data

How the results depend on the processing

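log2FC below stands for the log2 fold change of Vil-CREPTKO over WT. With 2 libraries per group, 1 library decided several values. Of the 10 genes, 1 (Nlrp6) passed as lower with library-size scaling (log2FC -0.73), with no filter on low counts (-0.64) and with DESeq2 (-0.62), and 0 did under the other alternatives, those leaving out a library included. Over the lists of related genes, the number that passed as lower was 2 with upper-quartile scaling, 7 with library-size scaling and 10 with no filter on low counts, against 4, and 3 to 7 without 1 library. The number that passed as higher was 5 with library-size scaling, 9 with no filter, 7 with DESeq2 and 5 with the GC and length correction, against 3, and 3 to 7 without 1 library (6 when WT replicate 1 and 7 when Vil-CREPTKO replicate 2 was left out). In the inflammasome list 1 gene passed as lower with upper-quartile scaling and 1 to 3 without 1 library. The log2FC of Nos2 turned to -0.024 with library-size scaling. Without 1 library it ranged from -0.61 to 1.19 for Nos2, from -0.47 to 0.19 for Il18, from -0.3 to 0.9 for Cfb and from -0.72 to -0.55 for Nlrp6. The cause was not tested. Reg3b had an adjusted p of 0.055 with RLE scaling and 0.0538 with upper-quartile scaling, and Gsdmd of 0.0599 and 0.0591.

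Over all genes, 400 passed as lower and 74 as higher. These numbers were 908 and 325 with no filter (28324 genes tested) and 625 and 183 with DESeq2, while 142 were higher when WT replicate 1 and 234 when Vil-CREPTKO replicate 2 was left out. Scaling by library size alone shifted the median of all genes to -0.1. Libraries with the same replicate number deviated from their group means with a correlation of only 0.0277, so that the numbers were not taken as pairs. With the replicate block, Nlrp6 had a log2FC of -0.64 with an adjusted p of 0.139, 0 of the 10 genes passed, 3 genes of the inflammasome list were lower, and Reg3b had an adjusted p of 0.114. Over all genes, 452 were then lower and 106 higher. Of 276 log2FC values of single genes recomputed under an alternative, 231 kept their direction and did not cross the threshold. These include Saa1 with DESeq2, which had no adjusted p. Of 84 counts 68 stayed within 1.5 times the reported one, but most of these were counts of the 10 genes that were 0 and stayed 0. For Saa2, Saa3, Lcn2 and Cxcl1 depth was the limit.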

Other observations

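In some genes near the 10, named after their values were seen, a single library stood far above the rest. Duox2, the epithelial oxidase that releases hydrogen peroxide, had 278.3 CPM in WT replicate 2 and 72.8 to 91.4 CPM in the others (log2FC of Vil-CREPTKO over WT -1.16, SE 0.42, edgeR adjusted p = 0.238). Duoxa2, its maturation factor, had 48.0 CPM in WT replicate 2 and 7.64 to 11.7 CPM in the others. Both its WT libraries lay above both Vil-CREPTKO libraries (log2FC -1.76, SE 0.52, edgeR adjusted p = 0.146). The tryptophan-degrading enzyme gene Ido1 had 27.2 CPM there and 9.58, 11.8 and 10.2 CPM elsewhere. WT replicate 2 is the library with Xist, and it had the lowest Ccl20 and Nos2 of the 4.

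Like Nos2, several sensors of bacterial products were high in WT replicate 1 and Vil-CREPTKO replicate 2. Tlr1, Tlr5, Tlr9 and Nod1 were instead highest in WT replicate 2 (8.63, 0.366, 0.67 and 8.33 CPM). The sensors given here, other than Tlr1, were named after their values were seen. In the order WT replicates 1 and 2, then Vil-CREPTKO replicates 1 and 2, Tlr2 had 2.06, 0.813, 0.759 and 1.85 CPM, Cd14 had 7.35, 5.1, 4.69 and 8.92 CPM, and Nod2 had 2.86, 1.77, 0.92 and 2.5 CPM. Lyz1, the lysozyme of Paneth cells, had 2957.9, 2669.9, 2494.8 and 4048.3 CPM in the same order. Ang4, from the same list of effectors, had 1286.3, 2030.6, 834.1 and 1324.9 CPM and was highest in WT replicate 2. Lyz1 and Ang4 were named after their values were seen.

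The order of libraries by Ccl20 (3.62, 2.17, 4.42 and 5.8 CPM) was also that of the plasma cell genes Igkc (33.3, 17.4, 48.9 and 61.1 CPM) and Jchain (13.0, 8.78, 17.6 and 24.4 CPM). Igha followed the same order, and Ighm (6.07, 6.28, 7.39 and 5.7 CPM) did not. Jchain, Igha and Ighm were named after their values were seen, and the share of all genes with this order was not counted. Jchain, which joins the IgA dimers that pIgR carries, had a log2FC of 0.95 (SE 0.23; edgeR adjusted p = 0.0787).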
